A study of Mus musculus with 2 samples.

Results

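The 10 genes *Fos*, *Fosb*, *Jun*, *Junb*, *Atf3*, *Egr1*, *Klf2*, *Nr4a1*, *Dusp1* and *Ier2* are immediate early genes. They were taken by symbol from the count tables of brain CD45+ cells of 8 mice, and all 10 were found there among 32285 genes. They were compared between 4 control and 4 Arpc4dCx3cr1 mice in microglia-like cells, and then in lymphocyte-like cells of the same brains, which passed through the same preparation, so that a difference by genotype could be set beside one that cells of a preparation share. All mice carried Arpc4 fl/fl alleles and were 12 weeks old. Control mice had no Cre. Arpc4dCx3cr1 mice were littermates with a heterozygous Tg(Cx3cr1-Cre) transgene, which removes *Arpc4*, a subunit gene of the actin-nucleating Arp2/3 complex, from cells in which the *Cx3cr1* promoter is or has been active. No mice with Cre and intact *Arpc4* were in this series, so the transgene and the deletion cannot be told apart in these counts. Outside this series, the paper compared such mice with Cre-negative Arpc4 fl/fl mice by imaging. It reported no difference in microglia numbers, ramification, IBA1 or P2RY12 and no activation by the transgene. The 10 genes are not among the markers it names there. Per the methods, brains were homogenised mechanically, cleared on Percoll and sorted for live CD45+ cells on a single day, and the tagged cells were pooled into 1 library.

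Immediate early genes are transcribed within minutes of a stimulus from factors that are already present in the cell, and most of their transcripts decay quickly. FOS, JUN and ATF proteins pair into the AP-1 family of transcription factors, EGR1, KLF2 and NR4A1 bind other DNA elements, and DUSP1 switches off the kinases that started the response. In microglia these genes are known both for reactions to injury and for a response to enzymatic or mechanical dissociation of the brain, which sets in while the cells are being isolated.

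Each unique molecular identifier (UMI) stands for 1 captured transcript, so levels are given as counts per 1000000 UMIs of all genes in the summed cells of a mouse (CPM), with no scaling by gene length. The 17036 microglia-like cells gave 997 to 2333 cells and 4206773 to 9713340 UMIs per control mouse, and 2182 to 2381 cells and 10021134 to 11690546 UMIs per Arpc4dCx3cr1 mouse. The 389 lymphocyte-like cells (309 T cell-like and 80 B cell-like) gave 30 to 69 cells and 154368 to 350374 UMIs per mouse. The T cell-like cluster also had the natural killer cell markers *Gzma* and *Nkg7* among its leading genes, and these cell types were not separated. In lymphocyte-like cells T cell markers summed to 1963 to 2812 CPM and natural killer cell markers to 1737 to 3465 CPM. The summed level of 12 microglia markers was 39292 to 39920 CPM in control and 28140 to 30445 CPM in Arpc4dCx3cr1 microglia-like cells. *Arpc4* was lower in microglia-like cells, with 224 to 243 CPM in control and 132 to 146 CPM in Arpc4dCx3cr1 mice (log2 −0.63 ± 0.05 SE, edgeR quasi-likelihood test, Benjamini-Hochberg adjusted p = 6.04e-06). *Cx3cr1*, the gene whose promoter drives the Cre, was lower as well, with 3642 to 3747 CPM in control and 1663 to 2317 CPM in Arpc4dCx3cr1 mice (log2 −0.70 ± 0.09 SE, edgeR quasi-likelihood test, adjusted p = 0.000136). Which exons of *Arpc4* are deleted is not given in the sources used here, so how much of the *Arpc4* transcript the 3′ counts can show was not tested. *Xist* stood at 1382.5 CPM in the microglia-like cells of Arpc4dCx3cr1 mouse 1 and at 3.65 to 13.2 CPM in those of the other 7 mice. Per the methods the mice were male except for a female Arpc4dCx3cr1 mouse, whose number is not given. The authors left the female mouse out of their downstream work on the single cells. Every mouse was kept here, and values are also given without mouse 1. That mouse had 1489 CPM of haemoglobin transcripts in its microglia-like cells, against 2.38 to 4.21 CPM in the others.

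**Figure D1:**
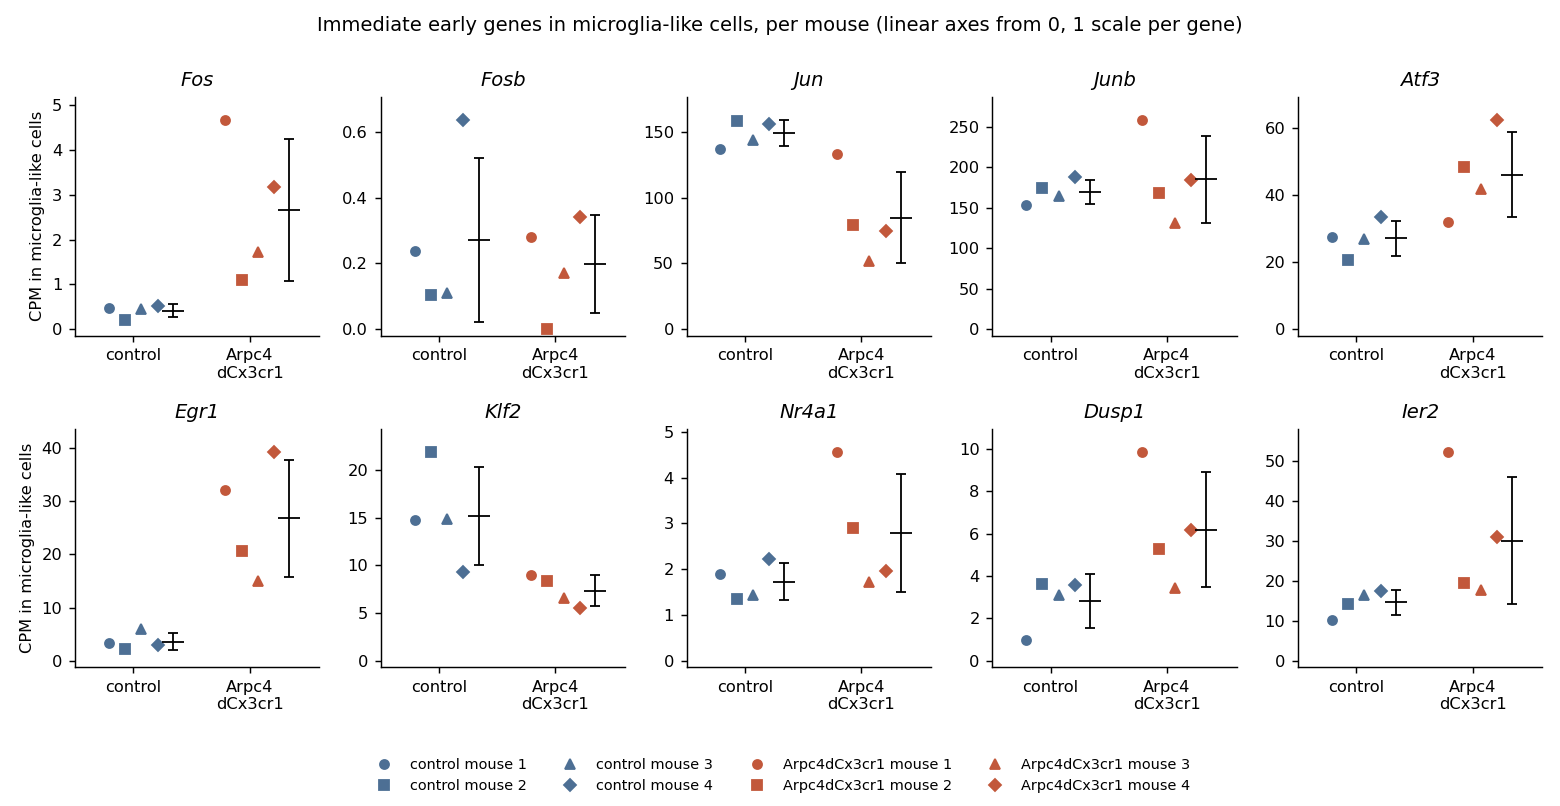
Level of each member in microglia-like cells (CPM, linear axes from 0, 1 scale per gene) for each of 4 control mice (blue) and 4 Arpc4dCx3cr1 mice (red), with mean and SD beside the points. The Arpc4dCx3cr1 mice lie above the control mice for *Fos*, *Egr1* and *Ier2* and below them for *Jun* and *Klf2*, and mouse 1 (circle) is the highest of its genotype for 7 of the 10 genes.

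Of the 10 members, 9 had enough counts to be tested between genotypes in microglia-like cells, and 7 of these passed: *Fos*, *Egr1*, *Atf3*, *Ier2* and *Dusp1* were higher in Arpc4dCx3cr1 mice, and *Jun* and *Klf2* were lower. The same test called 46.1% of the 12729 genes tested, 22.9% of them higher and 23.2% lower, so a call by itself is common in these cells. The median difference of the 9 members was 0.87 on the log2 scale, against −0.01 over all genes tested. The groups of mice did not overlap for 5 members, *Fos*, *Egr1*, *Ier2*, *Jun* and *Klf2*, and for 47.8% of all genes tested (16.5% higher, 31.3% lower). Levels are scaled by total UMIs alone and fitted differences also by edgeR's TMM factors, without which every log2 difference in microglia-like cells would be lower by 0.11 and no member would change direction. With these factors *Jun* and *Klf2* overlapped and *Atf3* and *Dusp1* did not, while 44.2% of all genes tested did not overlap (21.9% higher, 22.3% lower). In bulk sums such as these, a lower level in every cell and a smaller share of cells with the transcript cannot be told apart, so shares of cells are given further on.

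Promoter sequences are shown for 4 members, *Fos*, *Atf3* and *Dusp1* as the members that rose and have a promoter entry, and *Klf2* as a member that fell. *Jun*, which also fell, is not shown. The choice does not show what DNA elements risen or fallen members share. Of the 10 members, 8 matched the RefSeq promoter table (build GRCm38.p6), and *Egr1* and *Ier2* had no entry, so no promoter was read for them. Each line gives the 250 bases before the start site, 5′ to 3′ on the strand of the gene, and capitals mark matches to the cyclic AMP response element (CRE, TGACGTCA), its core (TGACGT, which overlaps the CRE) or the EGR motif (GCGNGGGCG), on either strand. The stretches are chr12:85473640-85473889 (plus strand) for *Fos*, chr1:191183334-191183583 (minus strand) for *Atf3*, chr17:26508473-26508722 (minus strand) for *Dusp1* and chr8:72318812-72319061 (plus strand) for *Klf2*.
Fos: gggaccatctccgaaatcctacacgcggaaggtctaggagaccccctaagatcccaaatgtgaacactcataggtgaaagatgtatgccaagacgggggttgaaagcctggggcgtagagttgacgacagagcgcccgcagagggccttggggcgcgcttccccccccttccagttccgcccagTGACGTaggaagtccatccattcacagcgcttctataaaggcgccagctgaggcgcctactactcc
Atf3: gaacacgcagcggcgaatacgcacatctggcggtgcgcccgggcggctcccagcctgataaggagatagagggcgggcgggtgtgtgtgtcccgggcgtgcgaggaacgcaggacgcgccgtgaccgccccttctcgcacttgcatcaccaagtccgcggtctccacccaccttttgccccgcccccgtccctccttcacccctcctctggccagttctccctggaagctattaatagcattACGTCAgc
Dusp1: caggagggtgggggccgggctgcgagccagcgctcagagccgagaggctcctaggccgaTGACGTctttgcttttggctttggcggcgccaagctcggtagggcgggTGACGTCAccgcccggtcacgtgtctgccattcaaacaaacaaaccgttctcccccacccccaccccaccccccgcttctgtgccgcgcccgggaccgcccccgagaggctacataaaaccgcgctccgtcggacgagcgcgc
Klf2: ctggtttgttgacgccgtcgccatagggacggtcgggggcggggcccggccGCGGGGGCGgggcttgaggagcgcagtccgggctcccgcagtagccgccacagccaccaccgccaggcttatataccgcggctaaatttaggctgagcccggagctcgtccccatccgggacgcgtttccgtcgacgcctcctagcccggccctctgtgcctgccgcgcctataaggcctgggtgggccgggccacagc

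Over the 300 bases of each table entry (250 before and 50 after the start), the CRE core was found in 3 of 8 members, *Fos* (66 bases before the start), *Atf3* (8 bases) and *Dusp1* (191, 143 and 141 bases), and in 7.51% of all 32851 promoters. The whole CRE was found in *Dusp1* alone of the 8 members, 143 bases before its start, and in 1.79% of all promoters. The EGR motif was found in *Fosb* (50 bases), *Nr4a1* (60 bases) and *Klf2* (199 bases before the start), and in 5.55% of all promoters. The AP-1 motif (TGANTCA) was in none of the 8 members and in 7.81% of promoters, and the CArG box, the element of serum response factor, was in none of the 8 and in 1.63% of promoters. A match is a description of these letters and not of binding. The start sites used for *Atf3* and *Dusp1* lie inside the longer spans that the GENCODE vM21 annotation gives these genes, chr1:191170296-191218039 and chr17:26505590-26562128. That of *Klf2* lies inside its span too, chr8:72319033-72321656, so the end of the *Klf2* stretch is annotated gene sequence.

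*Fos* and *Fosb* encode the FOS partners of AP-1. *Fos* (chr12:85473890-85477273, plus strand) was close to the detection limit in control microglia-like cells, with 0.475, 0.206, 0.443 and 0.529 CPM in mice 1 to 4, from 2, 2, 4 and 5 UMIs. In Arpc4dCx3cr1 mice it reached 4.66, 1.10, 1.72 and 3.17 CPM, from 50, 11, 20 and 37 UMIs. Every Arpc4dCx3cr1 mouse lay above every control mouse, and mouse 1 was the highest. The fitted difference was 2.80 ± 0.55 SE on the log2 scale (edgeR quasi-likelihood test, adjusted p = 0.00178) and 2.40 without mouse 1. *Fosb* (chr7:19302696-19310051, minus strand) gave 9 UMIs in all control and 9 in all Arpc4dCx3cr1 microglia-like cells, 0 to 6 per mouse, and was too low to be tested.

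The JUN partners were among the most abundant members. *Jun* (chr4:95049034-95052222, minus strand) had 137, 158, 144 and 156 CPM in control mice and 133, 79.4, 52.1 and 74.6 CPM in Arpc4dCx3cr1 mice. The groups did not overlap, but mouse 1 lay just under the lowest control mouse and the other 3 far below. *Jun* fell by 0.71 on the log2 scale (SE 0.22, edgeR quasi-likelihood test, adjusted p = 0.0217), and the difference was −1.02 without mouse 1. It no longer passed without control mouse 2 or 4 or Arpc4dCx3cr1 mouse 2 or 4, at differences of −0.70 to −0.66 (edgeR quasi-likelihood test, adjusted p = 0.0511 to 0.0564). *Junb* (chr8:84974484-84978718, minus strand), the JUN protein that often restrains JUN, had 154, 174, 164 and 188 CPM in control and 258, 168, 131 and 184 CPM in Arpc4dCx3cr1 mice. Its groups overlapped on both sides, with mouse 1 the highest and mouse 3 the lowest of all 8, and the difference of 0.23 ± 0.17 SE did not pass (edgeR quasi-likelihood test, adjusted p = 0.287) and was 0.02 without mouse 1. Reads of *Jun* and of its antisense neighbour *Junos*, and of *Junb* and *Prdx2*, can overlap, and only strand separates them.

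*Atf3*, a stress-induced partner of JUN that often represses its targets, had 27.6, 20.7, 26.8 and 33.4 CPM in control and 32.0, 48.3, 41.7 and 62.2 CPM in Arpc4dCx3cr1 mice. Mice 2 to 4 lay above all control mice, and mouse 1 lay within the control range. The difference was 0.87 ± 0.20 SE on the log2 scale (edgeR quasi-likelihood test, adjusted p = 0.00399), and 1.02 without mouse 1.

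The zinc finger genes moved in opposite directions. *Egr1* (chr18:34859823-34864984, plus strand), which encodes a growth- and activity-induced activator, had 3.33, 2.16, 5.98 and 2.86 CPM in control microglia-like cells, from 14, 21, 54 and 27 UMIs. In Arpc4dCx3cr1 mice it had 32.0, 20.7, 15.0 and 39.3 CPM, from 344, 207, 175 and 460 UMIs. The lowest Arpc4dCx3cr1 mouse was well above the highest control mouse. At 3.01 ± 0.37 SE, this was the largest log2 difference of the 9 tested members (edgeR quasi-likelihood test, adjusted p = 7.29e-05), and it was 2.91 without mouse 1. *Klf2* (chr8:72319033-72321656, plus strand), a factor of quiescent endothelial cells, lymphocytes and macrophages, had 14.7, 21.9, 14.8 and 9.31 CPM in control and 8.94, 8.38, 6.54 and 5.47 CPM in Arpc4dCx3cr1 mice. The groups did not overlap, although the lowest control mouse and Arpc4dCx3cr1 mouse 1 were close. *Klf2* fell by 0.96 on the log2 scale (SE 0.25, edgeR quasi-likelihood test, adjusted p = 0.00895), and the difference was −1.07 without mouse 1.

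*Nr4a1* (chr15:101254269-101274795, plus strand), an orphan nuclear receptor induced in activated immune cells, was low, at 1.90, 1.34, 1.44 and 2.22 CPM in control and 4.56, 2.89, 1.72 and 1.97 CPM in Arpc4dCx3cr1 mice. Mice 1 and 2 lay above the control mice and mice 3 and 4 within them. The difference of 0.80 ± 0.34 SE did not pass (edgeR quasi-likelihood test, adjusted p = 0.0787). It came to 0.46 without mouse 1 (edgeR quasi-likelihood test, adjusted p = 0.203) and passed without Arpc4dCx3cr1 mouse 3, at 0.98 (edgeR quasi-likelihood test, adjusted p = 0.0357).

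The last pair are an inhibitor and a gene of the early response whose product is a nuclear regulator. *Dusp1*, a phosphatase that inactivates MAP kinases, had 0.951, 3.60, 3.10 and 3.60 CPM in control and 9.87, 5.29, 3.44 and 6.16 CPM in Arpc4dCx3cr1 mice, from 4 to 35 and 40 to 106 UMIs per mouse. Mouse 3 lay inside the control range and the other 3 above it, with mouse 1 the highest. *Dusp1* rose by 1.13 ± 0.35 SE on the log2 scale (edgeR quasi-likelihood test, adjusted p = 0.0229), and by 0.81 without mouse 1. It no longer passed without control mouse 3, at 1.15 (edgeR quasi-likelihood test, adjusted p = 0.0542), or when cells were thinned to equal depth, at 1.05 (adjusted p = 0.0617 in edgeR). The annotated span of *Dusp1* overlaps 2 genes on the same strand and 2 on the other, so some of its reads may be shared with them. *Ier2* (chr8:84661331-84662852, minus strand) had 10.2, 14.3, 16.4 and 17.5 CPM in control and 52.4, 19.5, 17.6 and 31.1 CPM in Arpc4dCx3cr1 mice. The groups did not overlap by a narrow margin, and mouse 1 was far above the others. The difference was 1.12 ± 0.32 SE (edgeR quasi-likelihood test, adjusted p = 0.0160) and 0.71 without mouse 1.

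**Figure D2:**
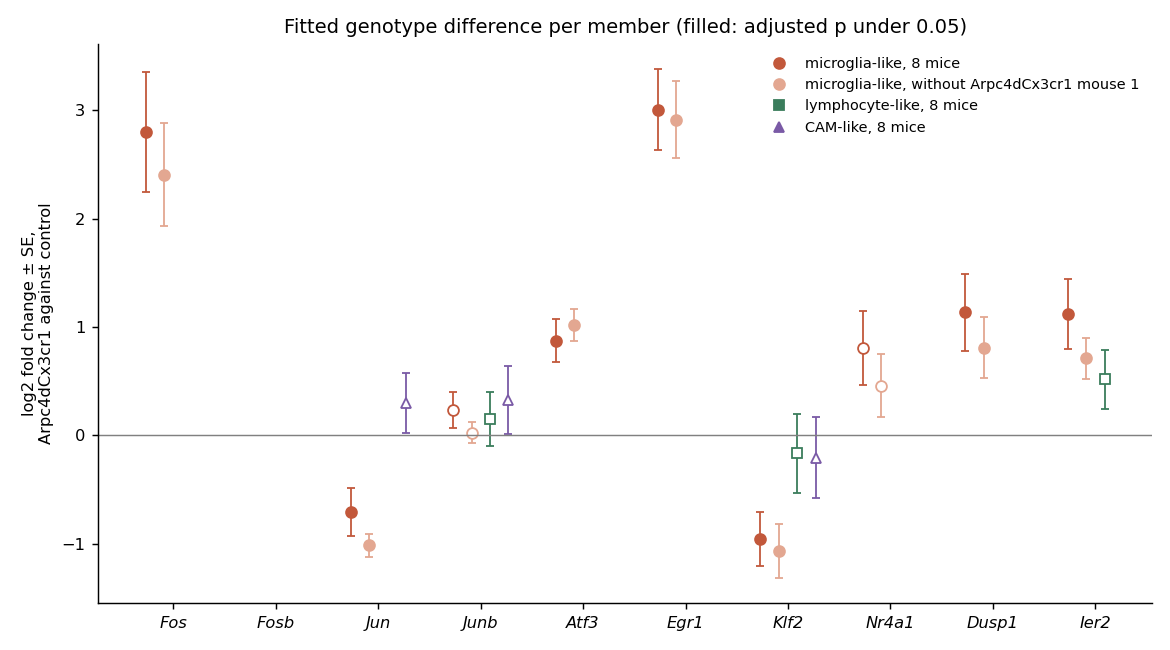
Fitted log2 difference, Arpc4dCx3cr1 against control, with SE for each member in microglia-like cells (8 mice, and without Arpc4dCx3cr1 mouse 1), lymphocyte-like cells and CAM-like cells. Filled symbols passed an adjusted p of 0.05. *Fos* and *Egr1* lie at 2.80 and 3.01 in microglia-like cells, *Jun* and *Klf2* below 0, and members with too few counts in a class have no symbol.

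Free RNA in the suspension was measured in the empty droplets of the pooled library, with no value per mouse. In these droplets *Fos* stood at 4.82 CPM, *Egr1* at 10.95, *Atf3* at 43.8, *Ier2* at 67.5, *Dusp1* at 6.57, *Nr4a1* at 6.28, *Klf2* at 62.2, *Jun* at 94.9 and *Junb* at 276 CPM. *Fos*, *Junb*, *Ier2*, *Nr4a1* and *Klf2* were therefore lower in the microglia-like cells of every mouse than in the empty droplets, whereas *Egr1* was above its empty-droplet level in every Arpc4dCx3cr1 mouse and below it in every control mouse. With free RNA subtracted at a share of 10% of each sum, which was assumed and not measured, *Egr1* differed by 3.49 on the log2 scale, *Klf2* by −2.71, and *Fos* was too low to be tested. For *Klf2*, 10% of its empty-droplet level was close to its whole level in Arpc4dCx3cr1 mice, 5.47 to 8.94 CPM, and counts below 0 were set to 0. Its value of −2.71 thus rests on the few counts left and does not show a stronger fall. Markers of some other cell types differed between genotypes as well. The summed level of 9 markers of brain tissue cells was 33.0 to 44.1 CPM in control and 96.7 to 153 CPM in Arpc4dCx3cr1 microglia-like cells, with 1 of the 9 at 0 in all mice. Without overlap between genotypes, granulocyte markers (6) summed to 388 to 408 and 422 to 605 CPM, proliferating cell markers (5) to 2.47 to 3.99 and 4.94 to 8.81 CPM, natural killer cell markers (7) to 1.34 to 2.85 and 3.35 to 5.16 CPM, and dendritic cell markers (5) to 4.99 to 7.93 and 15.7 to 20.8 CPM. B cell markers (6) were lower in Arpc4dCx3cr1 mice, at 225 to 240 and 71.6 to 138 CPM, and the sums of CAM, monocyte and T cell markers overlapped. The part of these cells in the members' levels was not tested.

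The levels above are averages over cells, and most members, though not *Jun* and *Junb*, were seen in few of them. To compare shares, every cell was thinned to 2000 UMIs, which left out 291 control and 328 Arpc4dCx3cr1 microglia-like cells with fewer. *Egr1* was then seen in 0.42% ± 0.16 of control cells (SD, n = 4 mice, range 0.27 to 0.62%) and 2.88% ± 1.20 of Arpc4dCx3cr1 cells (1.50 to 4.35%). *Klf2* was seen in 2.54% ± 0.53 of control and 1.39% ± 0.20 of Arpc4dCx3cr1 cells. For these 2 of the 10 members the groups of mice did not overlap, against 40.3% of all genes (14.3% higher, 26.0% lower). Among the overlapping members, *Jun* was seen in 24.3% ± 1.48 and 14.7% ± 5.55, *Atf3* in 4.33% ± 1.07 and 6.99% ± 1.98, and *Ier2* in 2.77% ± 0.83 and 5.62% ± 2.68 of control and Arpc4dCx3cr1 cells. *Junb* was seen in 28.3% ± 2.40 and 28.1% ± 7.26, and *Fos* in 0.060% ± 0.047 and 0.49% ± 0.39. Without thinning, the groups did not overlap for 5 members, *Fos*, *Egr1*, *Atf3*, *Ier2* and *Dusp1*, all higher in the deeper Arpc4dCx3cr1 cells, against 39.9% of all genes (23.3% higher). No class of these samples is known to lack the members. In lymphocyte-like cells at the same 2000 UMIs, *Egr1* was seen in 2.46% ± 1.80 of control and 2.21% ± 1.72 of Arpc4dCx3cr1 cells (153 and 200 cells). In those low in microglia markers, which are described further on, it was seen in 4.44% ± 3.06 and 0.625% ± 1.25 (83 and 125 cells), with overlapping groups. Without thinning these groups did not overlap, at 3.70 to 5.71% of control and 0 to 2.22% of Arpc4dCx3cr1 cells. These shares rest on 10 UMIs in control and 1 UMI in Arpc4dCx3cr1 mice and were not tested.

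Most cells held few members at a time. At 2000 UMIs, 49.5% ± 3.05 of control and 54.7% ± 9.29 of Arpc4dCx3cr1 microglia-like cells had a UMI of no member, and 0.163% ± 0.054 and 0.805% ± 0.355 had a UMI of 4 or more. The latter share was between 0.103 and 0.225% in control mice and between 0.516 and 1.27% in Arpc4dCx3cr1 mice, so the groups did not overlap. The control shares rest on few cells, out of 967 to 2218 per mouse. Shares of single genes did not overlap for 40.3% of all genes, and no other set of genes was counted in this way. The mean number of members per cell was 0.638 ± 0.054 and 0.620 ± 0.169, with overlapping groups. In Arpc4dCx3cr1 mice a cell with an *Egr1* UMI more often held some of the other members. Among the 255 such cells, *Junb* was seen in 63.1% ± 5.23, against 27.2% ± 7.15 of the cells without *Egr1*. The values were 33.7% ± 5.47 and 14.1% ± 5.47 for *Jun*, 32.4% ± 7.82 and 4.86% ± 2.48 for *Ier2*, and 19.8% ± 7.98 and 6.60% ± 1.76 for *Atf3*, and for these 4 genes and *Nr4a1* the order held in all 4 mice. *Fos* was seen in 5.26% ± 3.79 and 0.35% ± 0.30, from 13 cells that held both, and the order held in 3 mice. *Klf2* was seen in 1.76% ± 2.63 and 1.39% ± 0.16, in this order in 2 of 4 mice, *Dusp1* in 3.96% ± 3.39 and 1.13% ± 0.71, in this order in 3 mice, and *Fosb* in 1 cell with *Egr1*. In control mice 29 cells held *Egr1*, too few for such shares. Cells are not replicates, and no test was made of these shares.

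**Figure D3:**
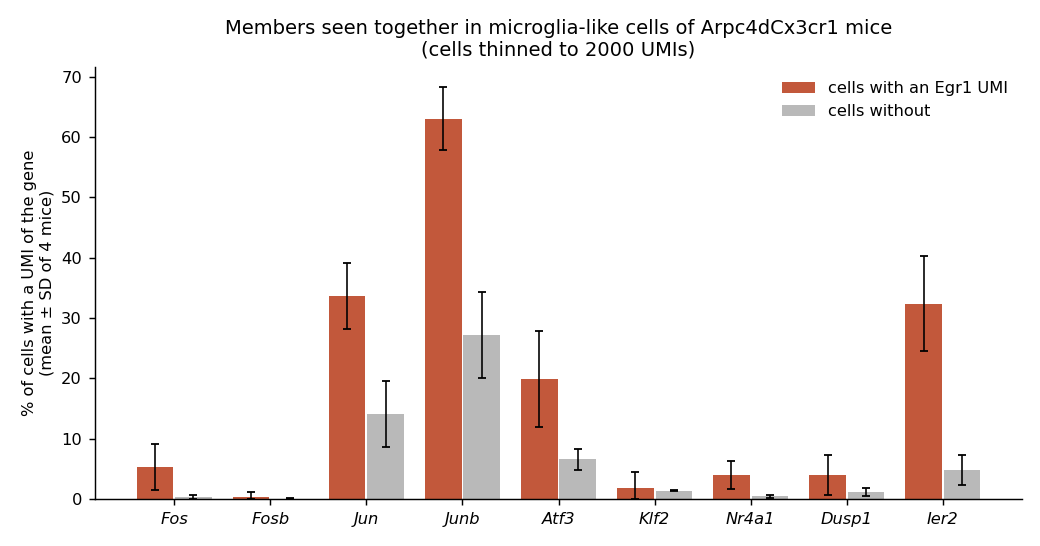
Share of microglia-like cells of Arpc4dCx3cr1 mice, thinned to 2000 UMIs, that hold a UMI of each other member, in cells with (red) and without (grey) an *Egr1* UMI, as mean and SD of 4 mice. *Junb*, *Jun*, *Ier2* and *Atf3* are seen more often in the cells with *Egr1*, at 63.1, 33.7, 32.4 and 19.8%.

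The members differed between clusters of microglia-like cells, which were formed without the members and the other listed genes. In the 4 clusters made almost entirely of control cells, mean levels over mice were 1.41 to 2.63 CPM for *Egr1*, 138 to 182 CPM for *Jun* and 0 to 0.45 CPM for *Fos*. The 8 clusters made mostly of Arpc4dCx3cr1 cells differed more. The cluster with *Ccl4* among its leading genes (877 cells, *Ccl3* 753 and *Ccl4* 2220 CPM, chemokines that draw immune cells) had the highest mean *Egr1*, 63.5 ± 21.4 CPM, and the highest mean *Atf3*, 174 ± 19.3 CPM. It held 27.7% of the *Egr1* and 39.5% of the *Atf3* UMIs of the Arpc4dCx3cr1 microglia-like cells with 8.41% of their cells and 11.1% of their UMIs. The cluster led by haemoglobin genes and *Ms4a7*, a gene of macrophages that are not typical microglia (1462 cells), had the highest mean *Fos*, 12.2 ± 9.70 CPM, *Dusp1*, 15.6 ± 7.31 CPM, and *Ier2*, 53.9 ± 16.5 CPM. That cluster made up 10.2 to 18.5% of the microglia-like cells of each Arpc4dCx3cr1 mouse and 0.201 to 0.686% of each control mouse, and it held 51 of the 118 *Fos* UMIs of the Arpc4dCx3cr1 cells. Nearly all of its haemoglobin transcripts came from mouse 1. Without it, *Fos* stood at 0.478, 0.207, 0.444 and 0.320 CPM in control and 2.58, 1.14, 0.738 and 2.34 CPM in Arpc4dCx3cr1 mice, still with no overlap but too low to be tested, and *Egr1* differed by 3.05 on the log2 scale. The cluster led by interferon-induced genes such as *Cxcl10* had 38.3 ± 7.40 CPM of *Egr1* and 4.84 ± 4.16 CPM of *Fos*. The largest cluster of Arpc4dCx3cr1 cells, led by *Tafa1* and *Ctnna3* (2335 cells), had 15.7 ± 5.60 CPM of *Egr1*, above the control clusters, and the lowest mean *Jun* of the 12 clusters, 55.2 ± 19.2 CPM. A cluster of 1485 cells, of which 96.3% came from mouse 1 and which *Xist* led, had 153 CPM of *Jun* and 38.1 CPM of *Egr1*, as means of the 2 mice with at least 30 cells in it.

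**Figure D4:**
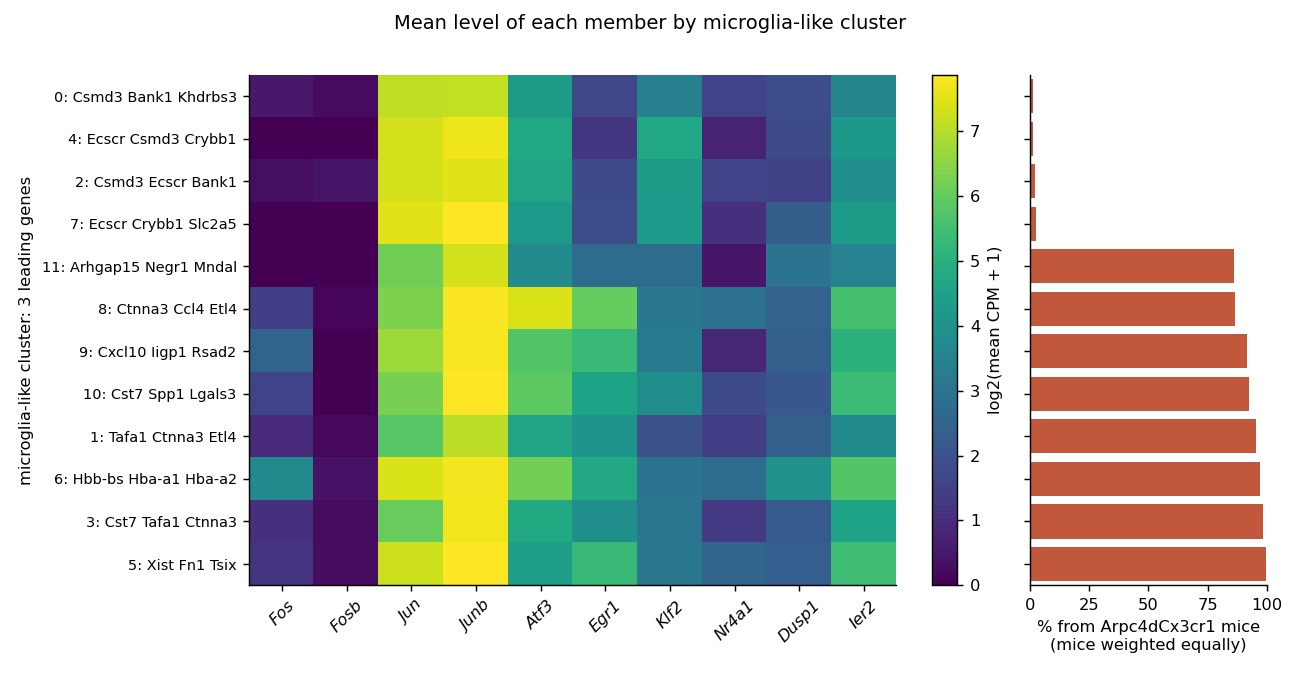
Mean level of each member, as log2(mean CPM + 1), in 12 clusters of microglia-like cells, each named by its number and 3 leading genes, with the share of cells from Arpc4dCx3cr1 mice (mice weighted equally) at the right. Means are over the mice of the genotype that makes up most of the cluster. *Egr1* is low in the 4 control clusters and highest in the cluster with *Ccl4*, and *Fos* is highest in the cluster led by haemoglobin genes.

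Over the 49 sums of a mouse and a cluster with at least 30 cells, the mean of the members was most like *Eif1a* (Pearson r = 0.787), *Lgals3* (0.777), *Bcl2a1b* (0.775), *Tuba1c* (0.767) and *Got1* (0.766) among the genes outside all lists. These sums come from 8 mice and share library and depth, so the coefficients are descriptions.

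In lymphocyte-like cells of the same mice *Arpc4* stood at 171 to 207 CPM in control and 114 to 205 CPM in Arpc4dCx3cr1 mice, with overlap. In those low in microglia markers it stood at 110 to 233 and 99.7 to 210 CPM. Whether the Cre had acted in these cells was not tested. Few members could be tested in lymphocyte-like cells. *Junb*, *Ier2* and *Klf2* had enough counts, and none of the 3 passed, at an unadjusted p under 0.05 or with DESeq2 either, where edgeR called 2.96% of the 4730 genes tested. *Ier2* had 84.2, 54.5, 64.0 and 62.9 CPM in control and 115, 105, 79.9 and 52.9 CPM in Arpc4dCx3cr1 mice, with overlap (log2 0.51 ± 0.27 SE, edgeR quasi-likelihood test, adjusted p = 0.429). *Klf2*, at 105 to 285 CPM in control and 43.4 to 323 CPM in Arpc4dCx3cr1 mice, differed by −0.16 ± 0.36 SE, and *Junb*, at 88.9 to 207 and 91.3 to 161 CPM, by 0.15 ± 0.25 SE. *Fos* had 6.48, 3.63, 14.2 and 10.5 CPM in control and 6.56, 0, 31.4 and 0 CPM in Arpc4dCx3cr1 mice, from 8 and 13 UMIs in all. *Egr1* had 19.4, 14.5, 7.11 and 15.7 CPM in control and 32.8, 0, 31.4 and 29.7 CPM in Arpc4dCx3cr1 mice, from 12 and 30 UMIs. Arpc4dCx3cr1 mouse 2 had no *Egr1* UMI in 161209 UMIs, which allows up to 18.6 CPM. *Jun* ranged from 17.8 to 69.1 CPM in control and 12.4 to 68.9 CPM in Arpc4dCx3cr1 mice, *Atf3*, *Dusp1* and *Nr4a1* from 0 to 21.8 CPM in all 8 mice, and *Fosb* gave no UMI.

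A part of these cells carried microglial transcripts, and the main tests of lymphocyte-like cells included them. Over all 389 cells the microglia markers summed to 30.6 to 37.8% of their level in microglia-like cells of the same mouse. The 12 microglia markers were at or over 4000 CPM in 147 of the 389 lymphocyte-like cells (median 7779 UMIs) and under it in 242 (median 3122.5 UMIs), a limit set after their levels had been seen. Of the 147 cells, 10 were below 2 times the limit. The 242 cells held 57195 to 180514 UMIs per mouse, where all lymphocyte-like cells held 154368 to 350374. In the 242 cells, *Egr1* gave 3, 2, 2 and 3 UMIs in control and 0, 0, 1 and 0 in Arpc4dCx3cr1 mice. The control counts stand for 17.3 to 37.98 CPM and those of Arpc4dCx3cr1 mice for 0 to 5.54 CPM, without overlap. The counts of 0 in Arpc4dCx3cr1 mice 1, 2 and 4 allow up to 19.6, 52.5 and 23.5 CPM, limits that reach into the control range. In the 147 cells it gave 0, 2, 0 and 0 in control and 10, 0, 10 and 9 in Arpc4dCx3cr1 mice. The *Egr1* of lymphocyte-like cells in Arpc4dCx3cr1 mice thus lay in cells that also held microglia markers, in 29 of 30 UMIs. In the 242 cells *Ier2* had 152, 82.7, 121 and 105 CPM in control and 144, 52.5, 122 and 78.2 CPM in Arpc4dCx3cr1 mice, and its difference went from 0.51 to −0.02 on the log2 scale. *Junb* differed there by −0.30 and *Klf2* by −0.26, and none of these 3 passed, nor did any of the 1416 genes tested there in edgeR, of which 94 had an unadjusted p under 0.05.

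Whether the genotype difference itself was another in microglia-like than in lymphocyte-like cells was tested in 1 fit over the 16 sums. None of the 9 tested members passed, nor at an unadjusted p under 0.05, nor with DESeq2, where edgeR called 2.87% of 11551 genes. In simulated sums this fit recovered 4% of log2 changes of 1 and 51% of the larger ones put in. The lack of a call therefore does not show that the genotype difference was the same in both classes. *Egr1* rose by 1.88 ± 0.98 SE more in microglia-like cells on the log2 scale (edgeR quasi-likelihood test, adjusted p = 0.462), and *Fos* by 2.27 ± 1.23 SE more (adjusted p = 0.488 in the same edgeR fit). *Klf2* and *Jun* differed by −0.84 ± 0.50 and −0.84 ± 0.64 SE, and *Dusp1* by 1.82 ± 1.05 SE. A lymphocyte-like sum held 0 to 11 UMIs of *Fos* or *Egr1*. Over the alternatives the difference between classes ranged from 1.47 to 5.97 for *Fos* and from 1.31 to 6.66 for *Egr1*. It ranged from 0.057 to 8.57 for *Atf3* and from −2.60 to −0.18 for *Klf2*. With no filter on low counts *Egr1* and *Klf2* passed, at 1.87 and −0.86 (edgeR quasi-likelihood test, adjusted p = 0.0444 and 0.0076), where 2.22% of 22654 genes did. With the 242 cells low in microglia markers in place of all lymphocyte-like cells, *Egr1* passed (edgeR quasi-likelihood test, adjusted p = 0.0245), and the fitted difference of 6.66 ± 1.63 SE rests on a single UMI in 4 Arpc4dCx3cr1 mice. That fit called 2.81% of 11387 genes.

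The level of the members was also compared between the 2 classes, in control mice alone. There *Fos*, *Ier2* and *Klf2* were higher in lymphocyte-like than in microglia-like cells, by 4.50, 2.24 and 3.92 on the log2 scale, and *Jun* was lower, by −1.77 (edgeR quasi-likelihood test, adjusted p = 0.00512, 0.000759, 2.74e-08 and 0.00157). These are 4 of 9 tested members, where 39.5% of all genes were called (19.3% higher, 20.2% lower). Both classes came from the same mice, and with the mouse as a block 7 of the 9 passed, where 37.9% of all genes were called. *Egr1* (2.02), *Dusp1* (1.99), *Atf3* (−1.67), *Nr4a1* (1.09) and *Junb* (−0.32) did not pass without the block. With it *Egr1*, *Atf3* and *Dusp1* passed, at 2.03, −1.63 and 1.99 (edgeR quasi-likelihood test with the mouse as block, adjusted p = 0.00375, 0.0067 and 0.0155). Of the 8 control *Fos* UMIs in lymphocyte-like cells, 6 lay in cells high in microglia markers, and *Fos* was too low to be tested in the 242 cells low in these markers and did not pass without control mouse 3, at 4.13 (edgeR quasi-likelihood test, adjusted p = 0.0760).

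**Figure D5:**
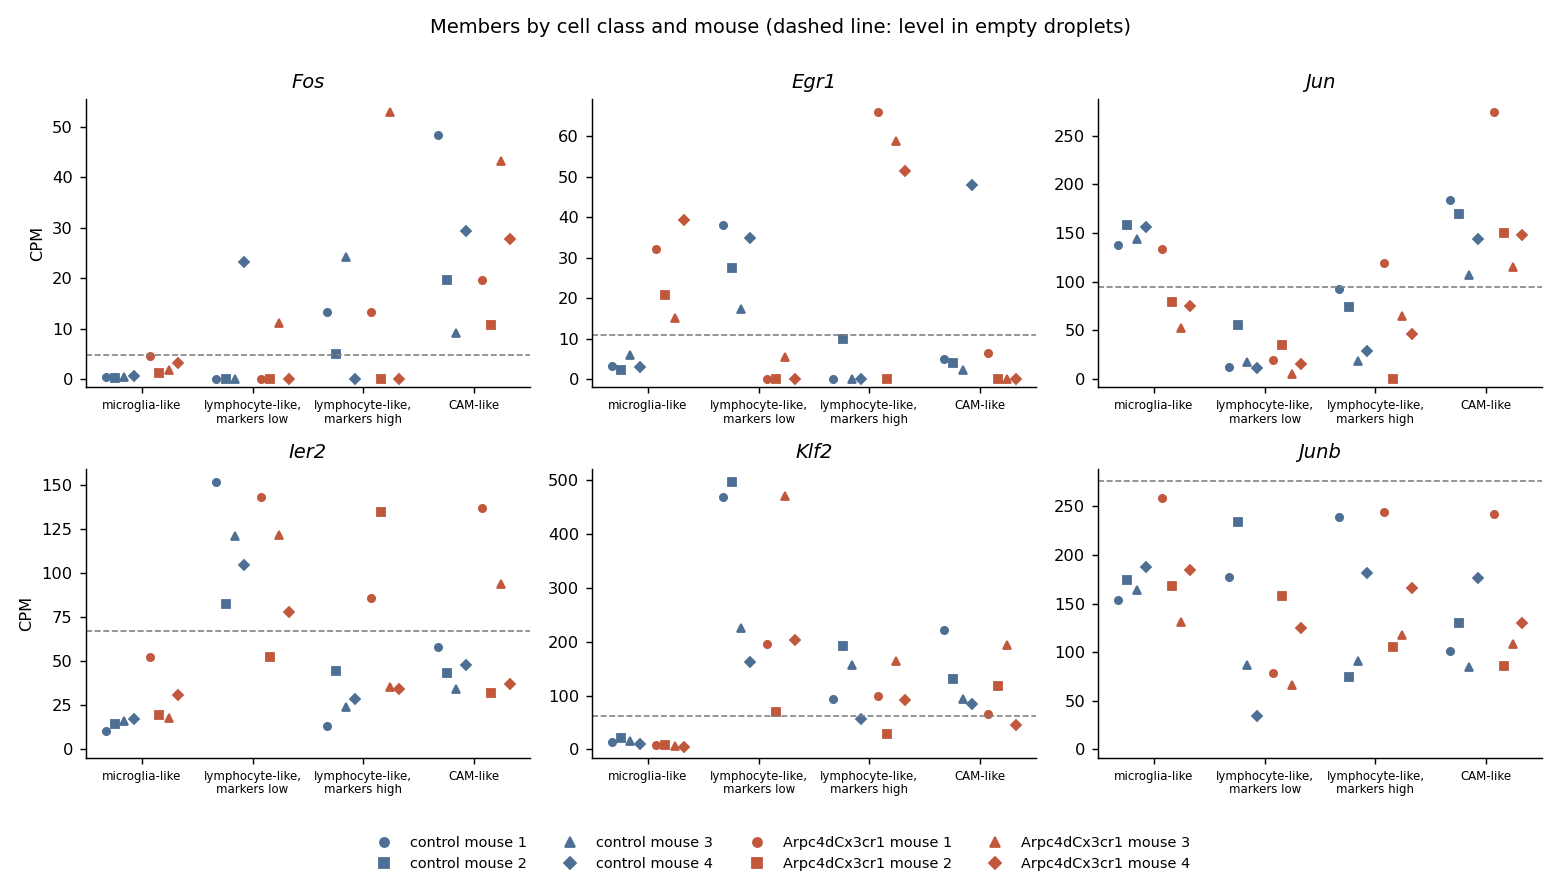
Level (CPM, linear axes from 0) of 6 members in each mouse, in microglia-like cells, lymphocyte-like cells low and high in microglia markers, and CAM-like cells, with the empty-droplet level as a dashed line. *Egr1* of Arpc4dCx3cr1 mice (red) is above that of control mice in microglia-like cells, and in lymphocyte-like cells low in microglia markers it rests on 1 UMI in 4 mice.

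CAM-like cells (CNS-associated macrophages, 283 control and 128 Arpc4dCx3cr1 cells) are the other resident macrophages in the sort. Their *Arpc4* level was 170 to 213 CPM in control and 203 to 242 CPM in Arpc4dCx3cr1 mice. *Jun*, *Junb* and *Klf2* could be tested and none passed, nor at an unadjusted p under 0.05, nor with DESeq2, where edgeR called 1.11% of 3147 genes. *Jun* had 184, 170, 107 and 144 CPM in control and 274, 150, 115 and 148 CPM in Arpc4dCx3cr1 mice (log2 0.30 ± 0.28 SE), and *Junb* differed by 0.32 ± 0.31 and *Klf2* by −0.21 ± 0.37. *Klf2* passed when clusters were formed at a coarser resolution of 0.4, at −2.78 (edgeR quasi-likelihood test, adjusted p = 3.92e-05), where the CAM-like class took in 273 to 442 cells per Arpc4dCx3cr1 mouse against 22 to 46 in the clustering used. Of its 1479 Arpc4dCx3cr1 cells, 1351 were microglia-like in the clustering used, 1286 of them in the cluster led by haemoglobin genes and *Ms4a7*, against 38 of its 320 control cells, so the coarser class held different cells in each genotype. Of 8 members tested there, 1 passed, where edgeR called 13.6% of 7713 genes. *Jun* and *Junb* turned to −0.12 and −0.17 without mouse 1. *Fos* was seen in the CAM-like cells of all 8 mice, from 4 to 10 UMIs per control mouse and 1 to 6 per Arpc4dCx3cr1 mouse. Its level was 9.12 to 48.4 CPM in control and 10.7 to 43.2 CPM in Arpc4dCx3cr1 mice, above that in microglia-like cells of either genotype. Empty droplets held it at 4.82 CPM, and the share of free RNA in these UMIs was not tested. In monocyte-like cells, which were not tested, the groups of mice did not overlap for 3 of the 9 members with a mean of at least 10 CPM, *Junb*, *Nr4a1* and *Klf2*, all higher in Arpc4dCx3cr1 mice, against 9.44% of the 7747 genes at that level (6.51% higher).

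Genes that work with the members were counted in microglia-like cells by list, where 22.9% of all genes tested were called higher and 23.2% lower. Of 14 heat shock genes, chaperones that refold proteins after stress, 13 were tested, 11 rose and none fell, with a median of 0.86 on the log2 scale. *Hsp90ab1* went from 476 ± 15.6 to 862 ± 172 CPM (log2 0.96 ± 0.12 SE) and *Hsph1* from 8.86 ± 1.85 to 21.5 ± 11.8 CPM (1.36 ± 0.33 SE), with mouse 3 the highest at 1112 and 39.0 CPM. In the other classes most heat shock genes did not pass. Those higher in Arpc4dCx3cr1 mice numbered 2 of 8 tested in lymphocyte-like cells, where 1.37% of all genes were called higher, and 1 of 7 in CAM-like cells, where 0.604% were. In lymphocyte-like cells these were *Hsp90ab1*, 964 to 1220 CPM in control and 1250 to 2024 CPM in Arpc4dCx3cr1 mice (log2 0.65 ± 0.15 SE, edgeR quasi-likelihood test, adjusted p = 0.0170), and *Hspa8*, 561 to 800 and 906 to 1222 CPM (0.65 ± 0.14 SE, edgeR quasi-likelihood test, adjusted p = 0.0118). In the 242 lymphocyte-like cells low in microglia markers, where no gene passed, *Hsp90ab1* came to 0.68 ± 0.24 SE (edgeR quasi-likelihood test, adjusted p = 0.689) and *Hspa8* to 0.79 ± 0.27 SE (adjusted p = 0.663 in the same edgeR fit), with overlapping groups. The 7 heat shock genes tested there had differences of 0.22 to 0.83 on the log2 scale, 4 of them at an unadjusted p under 0.05 in edgeR (*Hsp90ab1*, *Hspa8*, *Hspa5* and *Dnaja1*), against 94 of the 1416 genes. *Hsph1* was too low to be tested there, with 0 to 27.6 CPM in control and 35.0 to 94.2 CPM in Arpc4dCx3cr1 mice. In CAM-like cells it was *Dnaja1*, 103 to 162 and 214 to 396 CPM (1.24 ± 0.25 SE, edgeR quasi-likelihood test, adjusted p = 0.0132). No other gene of the lists passed in those classes. *Hspa8*, *Hspa5* and *Dnaja1* were named after their values had been seen.

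Of 8 early inflammatory genes 7 were tested, 4 rose and none fell, where 46.1% of all genes tested were called. *Il1b*, the cytokine interleukin 1 beta, had 3.57 to 5.50 CPM in control and 209, 56.1, 54.3 and 66.5 CPM in Arpc4dCx3cr1 mice (log2 4.38 ± 0.52 SE, edgeR quasi-likelihood test, adjusted p = 5.91e-05), with mouse 1 far above the others, and *Ccl4* went from 90.6 ± 27.6 to 528 ± 165 CPM (2.65 ± 0.26 SE). Of the other AP-1 and ATF factors 10 of 11 were tested, 2 rose and 4 fell, with a median of −0.13 on the log2 scale. *Batf* went from 9.92 ± 1.28 to 18.2 ± 4.47 CPM (log2 0.97), *Batf3* from 54.7 ± 2.52 to 38.1 ± 3.79 (−0.42) and *Mafg* from 95.5 ± 6.86 to 67.3 ± 5.68 (−0.40). Of the other early transcription factors 10 of 11 were tested, 4 rose and 1, *Klf3*, fell, from 247 ± 5.71 to 148 ± 7.03 CPM (log2 −0.63). *Klf13* went from 71.6 ± 4.95 to 94.4 ± 28.4 CPM (0.50), of which mouse 1 had 137.

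Feedback regulators, which limit the response, were split. Of 21 genes 19 were tested, 5 rose and 7 fell, with a median of 0.14 on the log2 scale. *Nfkbiz* and *Nfkbia*, regulators of NF-κB, went from 25.3 ± 2.99 to 63.3 ± 19.2 CPM (log2 1.43 ± 0.20 SE) and from 104 ± 16.4 to 161 ± 30.1 CPM (0.73 ± 0.13 SE). *Rhob*, a small GTPase of the actin cytoskeleton, went from 503 ± 17.1 to 193 ± 33.0 CPM (−1.28 ± 0.10 SE) and *Gadd45g* from 29.7 ± 4.52 to 12.7 ± 7.19 CPM (−1.12 ± 0.30 SE). Of 16 upstream factors and kinases, all tested, 3 rose and 3 fell, where 46.1% of all genes tested were called, with a median of −0.01 on the log2 scale. *Elk3* went from 202 ± 3.23 to 240 ± 26.2 CPM (log2 0.35), *Crem* from 16.6 ± 3.24 to 21.1 ± 4.33 (0.48), and the MAP kinase pathway genes *Map2k2* from 105 ± 2.77 to 71.7 ± 2.42 (−0.44) and *Mapk3* from 87.7 ± 1.91 to 66.3 ± 2.02 (−0.30). All genes named here as risen or fallen passed the quasi-likelihood test of edgeR after adjustment over all genes tested.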

How the data were processed

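CD45+ brain cells of 4 control and 4 Arpc4dCx3cr1 mice were sequenced from 3′ ends in 1 pooled library. The authors aligned reads to mm10 with Cell Ranger (7.1.0 per the file headers, 6.1.2 per the submitters' processing notes), assigned cells to mice by tags, which are in the deposited tables as other features, and deposited raw UMI counts, neither normalized nor corrected for free RNA. Of 19864 cells, 1 was dropped for having fewer than 200 genes or over 20% mitochondrial UMIs. Barcodes shared between mice numbered 0, and no doublet caller was run beyond the tags. The 1769098 barcodes with at most 100 UMIs were taken as empty droplets.

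Cells were clustered with Seurat 5.3.0 in R 4.3.3 (10000 variable genes, 20 components and neighbours, resolution 0.8) and named from fixed marker lists. A class other than microglia needed a median marker lead of 1 on the log2 scale (after adding 10 CPM). At least 3 of its markers also had to lead by 1. Remaining clusters were microglia-like if at least 3 microglia markers led by 1 over the pooled lymphocyte-like and granulocyte-like clusters. A total of 1505 cells of low UMI count stayed unnamed. Microglia-like cells were clustered again without listed genes. The members and lists were chosen with earlier results of these data known. Named besides the 10 members were the 2 largest rises and falls per list with a mean of at least 10 CPM, the 5 genes most like the members, *Arpc4*, *Cx3cr1* and *Xist*.

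Counts were summed per mouse and class (at least 10 cells) and tested by quasi-likelihood in edgeR 4.0.16, with its low-count filter and TMM factors and with p-values adjusted by Benjamini-Hochberg over all genes (threshold 0.05). Scripts were tested on simulated data. Mice are the replicates. Alternatives were DESeq2 1.42.0, no filter, free RNA subtracted at an assumed 10% of each sum, resolution 0.4, stricter cell limits, thinning to 2000 UMIs, a replicate block and leaving out each mouse. Added after seeing the data were the T cell-like cluster alone, lymphocyte-like cells under 4000 CPM of microglia markers, the unnamed clusters and leaving out the haemoglobin cluster. Ranges and limits at 0 (3 counts) cover counting error only. Tables, figures and sequences were handled with Python 3.11.15, numpy 2.4.6, pandas 2.3.3, scipy 1.17.1 and matplotlib 3.10.9. Bulk RNA sequencing was not analysed here.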

Additional observations from a re-analysis of the deposited data

Results flagged for a closer look

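Each member was checked for a mouse far from the other 3 of its genotype, over 56 groups of 4 mice, of which chance alone marks about 1 in 20, and 3 groups had such a mouse, all for *Egr1*. In lymphocyte-like cells, Arpc4dCx3cr1 mouse 2 had 0 CPM while the other 3 had 29.7 to 32.8. In CAM-like cells, control mouse 4 had 47.88 CPM, from 13 UMIs, while the others had 2.28 to 4.84, and Arpc4dCx3cr1 mouse 1 had 6.53 CPM, from 1 UMI, while the others had 0. Any group with 1 UMI in 4 mice is marked by this check, so the last mark does not show that mouse 1 stood apart. The chance rate above does not hold for such counts.

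Monocyte-like cells (114 control and 232 Arpc4dCx3cr1 cells, 14 to 114 per mouse) were in none of the comparisons. The mean level in Arpc4dCx3cr1 mice was above every control mouse for 3 members whose groups did not overlap, as was so for 6.51% of the genes with a mean of at least 10 CPM in these cells (9.44% did not overlap in either direction). *Nr4a1* had 81.3, 70.3, 159 and 140 CPM in control and 178, 279, 341 and 360 CPM in Arpc4dCx3cr1 mice (mean 289.62). *Klf2* had 193 to 483 and 550 to 1250 CPM (mean 905.89), and *Junb* had 139 to 203 and 237 to 393 CPM (mean 315.37). These differences were not tested, and *Arpc4* stood at 191 to 280 and 234 to 304 CPM in the same cells.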

How the results depend on the processing

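The count of 7 members that differed in microglia-like cells was 5 to 8 under the alternatives, 6 to 8 when a mouse was left out, 5 when cells were thinned to 2000 UMIs, and 7 with a replicate block, although the numbers of the mice pair nothing (correlations of −0.07 to −0.01 between mice of a number). The share of all genes called was 46.1%, and 26.7% with no filter, 40.9% when thinned, 43.5% with the block and 40.1 to 49.4% without a mouse. *Egr1* ranged from 2.75 to 3.49 and *Fos* from 2.40 to 3.05 on the log2 scale, and no member of this comparison changed direction. *Fos* could not be fitted with free RNA subtracted, at resolution 0.4, thinned or without the haemoglobin cluster.

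Direction turned only for members that did not pass. In lymphocyte-like cells, *Klf2* came to 0.45 at resolution 0.4, 0.44 with the T cell-like cluster alone and −0.78 to 0.095 without a mouse, and *Junb* to −0.023 to 0.40 without a mouse. Cells low in microglia markers gave −0.30 for *Junb* and −0.025 for *Ier2*. Leaving out a mouse gave CAM-like values of −0.12 to 0.46 for *Jun*, −0.17 to 0.53 for *Junb* and −0.76 to 0.10 for *Klf2*. In the difference between classes, *Junb* came to −0.21 at resolution 0.4, −0.20 with T cell-like cells and −0.24 to 0.24 without a mouse. *Nr4a1* came to −0.0069 with no filter, −0.039 with stricter cell limits, −0.020 with the replicate block and −1.06 to 1.25 without a mouse.

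In CAM-like cells 1 member passed at resolution 0.4, where 13.6% of all genes did. For the difference between classes, 2 members passed with no filter (2.22% of all genes), 1 with lymphocyte-like cells low in markers (2.81%) and 0 with the replicate block (3.77%). Against control microglia-like cells, the 4 members that differed in lymphocyte-like cells became 7 with DESeq2 (38.9% of all genes), with free RNA subtracted (39.8%) or with the mouse as replicate block (37.9%), 8 with no filter (22.7%), and 4 to 6 without a mouse. Shares of cells that did not overlap numbered 2 (40.3% of all genes), with 5 when not thinned (39.9%) and 2 to 4 without a mouse (43.2 to 47.3% of all genes; 4 without control mouse 1 or 4 or Arpc4dCx3cr1 mouse 1). Apart from the settings that thinned, filtered or left out data, the cause was not tested. Depth limits lymphocyte-like cells, where 1 UMI is worth 2.85 to 6.48 CPM.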
